A study of Mus musculus with 16 samples.

Results

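The change from the DN2-3 to the DN4 stage was measured in thymocytes of BDC/B6g7 mice, which carry an already rearranged T cell receptor (TCR) throughout early development. B6g7 mice are C57BL/6 animals with the H2g7 MHC haplotype of the diabetes-prone NOD strain, and BDC mice carry the transgenic TCR of BDC2.5, a CD4 T cell clone that recognises a pancreatic islet antigen. The comparison used 4 of the 16 arrays of the series: 2 of BDC/B6g7 DN2-3 cells and 2 of BDC/B6g7 DN4 cells, chosen by their labels, with replicate 1 of each stage from a male and replicate 2 from a female. All mice of the series were 4 weeks old. CD4 and CD8 cells were first depleted with complement. DN2-3 cells were then sorted as lineage-negative and CD25-positive, and DN4 cells as lineage-negative, CD44-negative and CD25-negative. The labels used here name neither the lineage antibodies nor the promoter of the transgene, and they do not say whether the stages of a replicate came from the same mice or whether mice were pooled. The replicates of a BDC stage differ in sex and so came from different mice, and their spread includes sex. For the polyclonal replicates, all female, the labels do not say whether the mice were separate, and their spread may be technical. Polyclonal B6g7 mice without the transgene (2 female arrays per stage) and BDC/NOD mice, which carry the same TCR on the full NOD background (1 male and 1 female array per stage), served to show where the stage step of BDC/B6g7 cells differed.

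In a polyclonal thymus, double-negative (DN) thymocytes rearrange the TCR beta locus at the CD25-positive stage. Cells whose beta chain pairs with the invariant pre-TCR alpha chain pass beta-selection, lose CD25, divide rapidly as DN4 cells and then acquire CD8 and CD4. A TCR transgene supplies a complete alpha-beta receptor at or before this checkpoint. Such early receptors are known to give rise also to double-negative cells with features of gamma-delta T cells.

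Values are log2 intensities, 1 probe set per gene, and a difference is DN4 minus DN2-3 with its standard error from limma (n = 2 arrays a stage). Median intensity of the 4 arrays ran from 123.1 to 126.8, and replicates correlated across genes with r of 0.990 in DN2-3 and 0.991 in DN4. A signal of 5.98 log2, the highest of a Y-linked gene on a female array, was taken as background. Where both arrays of a stage lay at or below background, a change is given as a bound ("at least"). Of 10689 genes tested, 5426 (50.8%) passed an adjusted p of 0.05 with limma: 2181 (20.4%) were higher and 3245 (30.4%) lower in DN4 cells. With quantile normalization applied again the split was 2736 higher and 2820 lower. Both replicate pairs showed the direction of the change in all 5426, and in 5424 the arrays of the stages did not overlap. With 2 arrays a stage, passing the test nearly requires both, so these counts are no separate support. The change was at least 2-fold in 355 genes that rose and 640 that fell, and at least 4-fold in 40 and 18. The median change of all tested genes was -0.05. The shares of 20.4% higher and 30.4% lower are the baseline for the counts of every gene list below. Without the 4 male arrays of the series, which leaves 1 array a stage whose spread is assumed to be that of the other groups, 2435 genes passed.

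**Figure D1:**
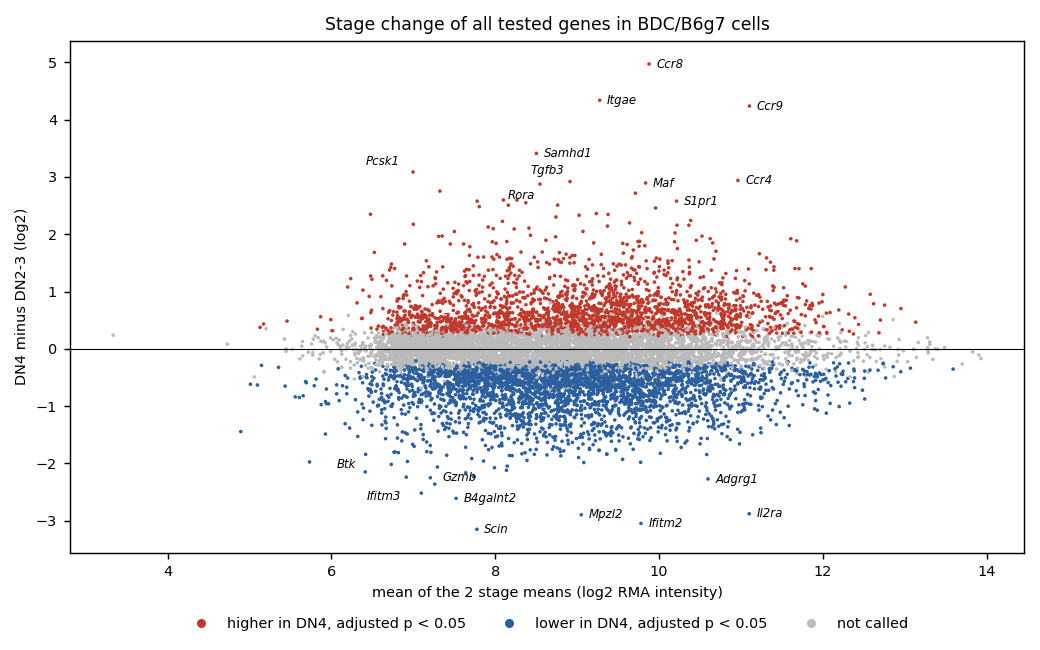
Change from DN2-3 to DN4 in BDC/B6g7 cells (log2, vertical axis) against the mean log2 intensity of the 4 arrays (horizontal axis), 1 point for each of 10689 tested genes. Genes that passed the test are coloured by direction, 2181 higher and 3245 lower, and the upper edge is formed by Ccr8, Itgae and Ccr9.

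The sort was visible on the arrays. Il2ra, which encodes CD25, read 12.52 and 12.56 in DN2-3 cells and 9.61 and 9.71 in DN4 cells. Cd44 read 7.66 and 7.67 against 6.24 and 6.12. Both genes were used for sorting, so their fall is a check of the labels and not a result. Of the coreceptor genes, which mark cells beyond the DN stages, Cd4 read 6.49 and 6.46 in DN2-3 and 6.58 and 6.99 in DN4 cells (difference 0.31 ± 0.14, adjusted p = 0.089, or 0.036 with the replicate number as a block). Cd8a read 7.13 and 6.68 in DN2-3 and 6.96 and 6.94 in DN4 cells (difference 0.05 ± 0.18, adjusted p = 0.85). Cd8b1 read 8.11 and 7.69, then 8.07 and 7.97 (difference 0.12 ± 0.22, adjusted p = 0.68). The arrays of the stages overlapped for both CD8 chains.

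Other cell types were followed through marker lists. The markers of B cells had 2 of 11 matched genes above the filter on dim genes and none called by limma (1 higher at an unadjusted p under 0.05, and 2 called with only the BDC arrays in the fit), with summed intensities of 1132 and 1132 in DN2-3 and 1304 and 1382 in DN4 cells. Called changes were 2 higher among 5 tested NK cell markers, 3 lower among 5 tested myeloid and dendritic markers, 1 lower of 2 erythroid markers, 1 lower of 2 mast cell markers, and 1 higher and 1 lower of 7 stromal markers. Over all tested genes 20.4% were called higher and 30.4% lower, and these lists are too short to set their shares against that. Of matched markers, 8 of 15 for NK cells and 10 of 19 for myeloid and dendritic cells were not above background on any of the 4 arrays. Ncr1, Klrb1c, Eomes, Csf1r, Itgam, Cd14 and Itgax were among these. Other NK markers were bright: Nkg7 read 11.66 and 11.38 in DN2-3 and 11.70 and 11.78 in DN4 cells. Gzma read 11.50 and 11.31, then 11.72 and 11.67. Summed myeloid and dendritic markers were 3348 and 3166 against 2238 and 2349. Whether such cells were present was not tested. Markers of mature T cells moved most: their summed intensity was 29100 and 28785 in DN2-3 and 48115 and 52495 in DN4 cells, and 15 of 22 rose. Genes typical of double-positive thymocytes summed to 24916 and 22654 in DN2-3 and 38227 and 35949 in DN4 cells, with 7 of 23 higher and 5 lower (3 lower without DN4 replicate 2). This sum includes Ccr9, which changed by 4.24 and is bright in DN4 cells (13.28 and 13.16). The members Cd4, Cd8a and Cd8b1 were not called, and Rag1 and Dntt changed by -1.44 and -0.46. The mature T cell list shares Itgae, Ccr7, S1pr1, Klf2, Itgb7 and Gimap genes with lists described here, and the part of a mature subset in those results was not tested. In bulk samples, a change in the number of cells of a type and a change in RNA per cell cannot be told apart.

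Receptors that guide migration held the steepest increases of the stage step. Ccr8, a receptor for the chemokine CCL1, read 7.58 and 7.20 in DN2-3 cells and 12.31 and 12.41 in DN4 cells. This change of 4.97 ± 0.17 (31.3-fold, adjusted p = 1.5e-09) was the largest of the genes tested. Ccr9, the receptor for CCL25 that thymocytes and gut-homing T cells use, read 9.31 and 8.66 in DN2-3 and 13.28 and 13.16 in DN4 cells. The groups lay far apart, with a rise of 4.24 ± 0.16 (18.8-fold, adjusted p = 3.7e-09). Ccr4, which directs cells towards the thymic medulla and skin, read 9.52 and 9.47, then 12.41 and 12.45 (rise 2.94 ± 0.13, 7.67-fold, adjusted p = 6e-09). Its replicates differed by less than 0.1 at either stage, far less than the step between them.

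Genes of exit from the thymus rose with them. S1pr1, the sphingosine-1-phosphate receptor required for thymic egress, read 8.97 and 8.88 in DN2-3 and 11.38 and 11.62 in DN4 cells. The rise was 2.58 ± 0.12 (5.97-fold, adjusted p = 1.4e-08). Klf2, the transcription factor that drives S1pr1, read 8.37 and 8.43 against 9.56 and 9.66 (rise 1.21 ± 0.14, adjusted p = 1.2e-05). Ccr7, which leads thymocytes to the medulla and T cells to lymph nodes, read 8.67 and 8.79 in DN2-3 and 10.16 and 10.63 in DN4 cells, with a rise of 1.67 ± 0.17 (3.18-fold, adjusted p = 3.1e-06). Cx3cr1, the fractalkine receptor, rose by 1.47 ± 0.10 from 7.39 and 7.53 to 9.04 and 8.81. Cxcr6 was not above background on the DN2-3 arrays and read 6.97 and 7.26 in DN4 cells, a rise of at least 1.14. Gpr183 and P2ry10, both receptors for lipids, rose by 1.11 and 1.10. In all, 11 of the 13 tested chemokine and egress receptors were higher in DN4 cells, and the median change was 1.27. None was lower with limma, also at an unadjusted p under 0.05 (0 of 13). Cxcr4, the CXCL12 receptor that early thymocytes need, differed by -0.11 and Cxcr3 by -0.07, and neither passed the test.

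**Figure D2:**
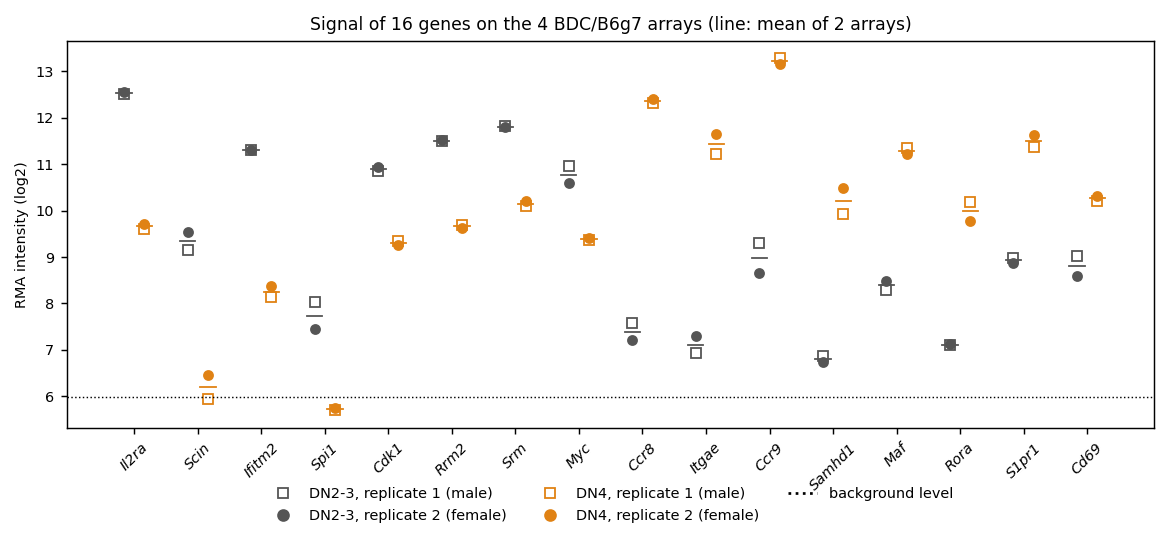
Log2 intensity (vertical axis) of 16 genes on the 4 BDC/B6g7 arrays, with DN2-3 and DN4 side by side for each gene. Squares are replicate 1 (male), circles replicate 2 (female), and the dotted line is the background of 5.98; the stages do not overlap for any of the genes drawn.

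Adhesion molecules changed in both directions. Itgae, the CD103 chain of the integrin that binds epithelial E-cadherin, read 6.93 and 7.29 in DN2-3 and 11.23 and 11.66 in DN4 cells. This increase of 4.34 ± 0.17 (20.2-fold, adjusted p = 3.7e-09) was second only to that of Ccr8. Its partner chain Itgb7 rose by 0.71. Itgb3, the beta chain of the vitronectin receptor, read 8.85 and 8.61 against 11.15 and 11.22 (rise 2.46 ± 0.11, 5.49-fold, adjusted p = 1e-08). The chains of LFA-1 also increased: Itgb2 read 9.45 and 9.29 in DN2-3 and 10.82 and 10.68 in DN4 cells, a rise of 1.37, and Itgal rose by 0.85. Cd2, which binds CD48, rose by 1.32 ± 0.11 while Cd48 itself fell by 0.84. Nrp1, a semaphorin and VEGF co-receptor, read 8.26 and 7.87 in DN2-3 and 6.16 and 6.38 in DN4 cells and fell by 1.79 ± 0.16. The VLA-4 and VLA-6 chains Itga4, Itgb1 and Itga6 fell by 0.57, 0.36 and 0.32. Over the list, 11 of 24 adhesion genes were higher and 7, the sort gene Cd44 included, lower, with a median of 0.30. Without the male arrays, 6 were higher and 3 lower. With all arrays, the lower share was near the 30.4% of all tested genes called lower, and the higher share was above the 20.4% called higher.

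Among genes with the largest increases outside these families, Samhd1 stood out. It encodes an enzyme that hydrolyses deoxynucleotides, and it read 6.86 and 6.73 in DN2-3 and 9.92 and 10.49 in DN4 cells. The rise was 3.41 ± 0.17 (10.6-fold, adjusted p = 1.7e-08). Pcsk1, a prohormone convertase, was at 5.33 and 5.58 in DN2-3 cells, below background, and at 8.74 and 8.34 in DN4 cells, a rise of at least 2.56. Tgfb3, a cytokine of the TGF-beta family, rose from 7.44 and 7.47 to 10.10 and 10.64 (2.92 ± 0.24). Tlr1, a receptor for bacterial lipopeptides, read 5.87 and 6.03 in DN2-3 and 8.39 and 9.01 in DN4 cells. Tlr1 rose by 2.75, with 1 of the DN2-3 arrays below background. St3gal6, a sialyltransferase, rose by 2.60 ± 0.09 and Glcci1 by 2.72 ± 0.25.

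Transcription factors and receptors associated with gamma-delta and innate-like T cells formed a further group of increases. Maf, which supports IL-17-producing gamma-delta cells, read 8.28 and 8.49 in DN2-3 and 11.34 and 11.22 in DN4 cells. It rose by 2.89 ± 0.14 (7.43-fold, adjusted p = 1.4e-08). Rora, which encodes the nuclear receptor ROR-alpha, read 7.10 and 7.12 in DN2-3 and 10.18 and 9.78 in DN4 cells, a rise of 2.87 ± 0.11 (7.33-fold, adjusted p = 3.7e-09). Sox13, a factor of gamma-delta cells, rose by 1.43 ± 0.11 from 9.73 and 9.58 to 11.22 and 10.95. The scavenger receptor genes 5830411N06Rik and Cd163l1, both known as gamma-delta markers, read 9.32 and 9.25 against 11.45 and 11.43, and 9.59 and 9.49 against 11.53 and 11.48. Their rises were 2.16 ± 0.10 and 1.97 ± 0.11. Il2rb, the beta chain of the IL-2 and IL-15 receptors, rose by 1.56 ± 0.14 (7.94 and 8.04 to 9.33 and 9.76), and the cytokine genes Il17f and Ifng by 1.43 and 0.70. Zbtb16, which encodes the innate-like factor PLZF, read 6.97 and 7.32 in DN2-3 and 7.03 and 7.32 in DN4 cells (difference 0.03, adjusted p = 0.87). Gzmb, a cytotoxic granule protease, went the other way: it read 8.50 and 8.38 in DN2-3 and 6.17 and 5.996 in DN4 cells and fell by 2.36 ± 0.14 (5.14-fold, adjusted p = 5.3e-08). Of 23 tested genes of this list, 14 were higher and 3 lower, the sort gene Cd44 among the lower, with a median of 0.69. Of the NK cell markers, 8 of 15 were not above background on any of the 4 arrays, and the summed intensity of the 15 was 6906 and 6013 in DN2-3 and 8011 and 8276 in DN4 cells.

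Cell division genes fell almost as a block. Of 43 tested DNA replication genes, 43 were lower in DN4 cells, by between 0.72 (Rpa1 and Rfc1) and 1.91, with a median of -1.47. Gins1, a subunit of the replicative helicase complex, read 8.66 and 8.68 in DN2-3 and 6.71 and 6.80 in DN4 cells (it fell by 1.91 ± 0.10, 3.77-fold, adjusted p = 2.8e-08). Rrm2, the regulated subunit of ribonucleotide reductase, read 11.49 and 11.51 against 9.68 and 9.63 (it fell by 1.84 ± 0.20, 3.59-fold, adjusted p = 5.3e-06). Tyms, which makes thymidylate, read 10.31 and 10.40 in DN2-3 and 8.69 and 8.48 in DN4 cells. The helicase gene Mcm5 fell by 1.33 ± 0.22 and Pcna, the sliding clamp, by 0.88 ± 0.08, from 12.98 and 12.91 to 12.02 and 12.12. For each of these genes no DN4 array reached a DN2-3 value.

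Mitotic genes followed: 51 of 52 were lower, and the median was -1.24. Pbk, a mitotic kinase, read 9.26 and 9.08 in DN2-3 and 7.28 and 6.97 in DN4 cells (it fell by 2.05 ± 0.15, 4.13-fold). Cdk1, the kinase that drives entry into mitosis, read 10.85 and 10.95 against 9.34 and 9.25 (it fell by 1.61 ± 0.10, 3.04-fold, adjusted p = 5.3e-08). Aurkb, the kinase of the chromosomal passenger complex, fell by 1.56, its partner Birc5 by 1.69, and the proliferation marker Mki67 by 1.07 ± 0.09, from 11.61 and 11.51 to 10.48 and 10.50. The 1 gene that did not pass was Cenpa, the centromeric histone, at -0.01.

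Because replication and mitotic genes fell together, the start regions of some members are shown with motifs known for cell cycle promoters. The sequences are from the RefSeq promoter table of GRCm38.p6, the 250 bases before the first listed start, and the genes and motifs were chosen after the values were seen. An E2F motif (TTTCCCGC or TTTGGCGC, either strand) stood in 6 of 36 replication promoters (16.7%), against 2.83% of 8664 promoters of tested genes and 1.35% of all 27025. The motif TTTGAA, known as the cell cycle genes homology region, stood in 14 of 41 mitotic promoters (34.1%), against 10.2% and 16.3%. CCAAT boxes stood in 30 of 41 mitotic (73.2%) and 23 of 36 replication promoters (63.9%), against 36.6% and 34.5%. Of other searches, E2F stood in 1 of 41 mitotic (2.44%) and TTTGAA in 4 of 36 replication promoters (11.1%). Of 31 promoters of lowered ribosome and Myc genes, 3 held E2F and 3 the E-box CACGTG (9.68% each). The E-box stood in 8.69% of tested promoters. Of 9 promoters of raised chemokine and egress receptors, 3 held TTTGAA (33.3%) and 0 the FOXO motif TGTTTAC (2.15% of tested promoters). These shares describe letters in a window and were not tested. The 3 replication promoters belong to Cdc6, Mcm7 and Pola1. Cdc6 loads the helicase (chr11:98907901-98908150, plus strand), and Mcm7 is a helicase subunit (chr5:138171884-138172133, minus strand). Pola1 is the catalytic subunit of DNA polymerase alpha (chrX:93632156-93632405, minus strand). Capitals mark the E2F motif.
Cdc6: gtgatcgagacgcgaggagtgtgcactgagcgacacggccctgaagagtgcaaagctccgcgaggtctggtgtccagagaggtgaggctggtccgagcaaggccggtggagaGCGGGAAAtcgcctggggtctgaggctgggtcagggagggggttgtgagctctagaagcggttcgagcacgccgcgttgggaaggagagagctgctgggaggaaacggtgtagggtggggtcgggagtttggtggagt
Mcm7: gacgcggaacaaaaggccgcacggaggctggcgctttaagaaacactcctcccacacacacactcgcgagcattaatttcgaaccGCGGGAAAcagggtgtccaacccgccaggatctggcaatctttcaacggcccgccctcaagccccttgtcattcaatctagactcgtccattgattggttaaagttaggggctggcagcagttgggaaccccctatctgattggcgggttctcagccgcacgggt
Pola1: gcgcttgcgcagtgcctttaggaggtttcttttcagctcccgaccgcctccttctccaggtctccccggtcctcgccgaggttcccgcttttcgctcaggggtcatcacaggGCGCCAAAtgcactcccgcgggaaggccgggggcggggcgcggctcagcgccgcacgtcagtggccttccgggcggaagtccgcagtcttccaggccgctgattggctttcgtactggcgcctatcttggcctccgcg
These genes fell by 1.59, 1.53 and 1.47 from DN2-3 to DN4, close to the median of the replication list.

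The 3 mitotic promoters belong to Cdk1 (chr10:69352913-69353162, minus strand), the chromosome motor Kif22 (chr7:127042421-127042670, minus strand) and the separase gene Espl1 (chr15:102296043-102296292, plus strand). Capitals mark TTTGAA and CCAAT on either strand (TTCAAA and ATTGG on the other). The motifs do not overlap in these windows.
Cdk1: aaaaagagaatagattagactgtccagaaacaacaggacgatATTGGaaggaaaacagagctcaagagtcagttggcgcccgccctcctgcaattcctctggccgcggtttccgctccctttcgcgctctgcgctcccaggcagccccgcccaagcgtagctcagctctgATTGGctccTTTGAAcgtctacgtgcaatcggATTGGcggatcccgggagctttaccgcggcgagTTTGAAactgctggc
Kif22: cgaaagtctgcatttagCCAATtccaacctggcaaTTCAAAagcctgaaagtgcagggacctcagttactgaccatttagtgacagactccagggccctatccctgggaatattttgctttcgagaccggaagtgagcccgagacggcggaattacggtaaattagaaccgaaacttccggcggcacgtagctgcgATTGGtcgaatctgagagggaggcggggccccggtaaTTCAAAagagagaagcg
Espl1: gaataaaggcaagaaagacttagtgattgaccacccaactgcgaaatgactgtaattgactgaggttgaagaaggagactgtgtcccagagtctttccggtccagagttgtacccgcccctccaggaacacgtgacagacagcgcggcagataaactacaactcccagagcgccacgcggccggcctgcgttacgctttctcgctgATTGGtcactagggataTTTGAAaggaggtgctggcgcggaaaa
Kif22 read 9.21 and 9.36 in DN2-3 and 7.84 and 7.93 in DN4 cells, and Espl1 read 9.33 and 9.19 against 7.94 and 7.81. Kif22 fell by 1.40 and Espl1 by 1.38, near the fall of Cdk1.

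Genes of the G1 phase changed in both directions. The cyclin E genes and the E2F1 factor, which start S phase, were lower: Ccne2 read 9.83 and 9.56 in DN2-3 and 8.02 and 7.77 in DN4 cells (it fell by 1.79 ± 0.17, adjusted p = 1.8e-06), Ccne1 fell by 1.49 ± 0.09 and E2f1 by 1.74 ± 0.18. Genes that restrain division went both ways. Btg1, an antiproliferative factor, read 10.48 and 10.56 against 12.02 and 12.19 (rise 1.59 ± 0.12, 3.00-fold), and Btg2 rose by 1.15. Cdkn1b, which encodes the inhibitor p27, read 10.02 and 9.83 in DN2-3 and 10.87 and 10.81 in DN4 cells, a rise of 0.92 ± 0.10 (adjusted p = 6.5e-06). The pocket protein genes Rbl2 and Rb1 rose by 0.97 and 0.40, while the third, Rbl1, fell by 0.84. The inhibitor gene Cdkn2c fell by 0.87, and Cdkn2d differed by 0.15 and did not pass. In all, 5 of 24 genes of the list rose, near the share over all tested genes (20.4%), and 14 fell (30.4% over all). The D cyclins did not pass: Ccnd2 differed by 0.21 (adjusted p = 0.35) and Ccnd3 by -0.63 (adjusted p = 0.13).

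Growth genes fell as well. Of 39 tested genes of ribosome biogenesis and of Myc with its targets, 37 were lower, with a median of -1.07. No gene of the replication, mitotic or growth lists was higher with limma, also at an unadjusted p under 0.05 (0 of each list). Srm, spermidine synthase and a known Myc target, read 11.82 and 11.80 in DN2-3 and 10.10 and 10.20 in DN4 cells (it fell by 1.66 ± 0.22, 3.16-fold, adjusted p = 3.7e-05). Gnl3, the nucleolar protein nucleostemin, read 10.21 and 10.24 against 8.69 and 8.53. Myc itself read 10.96 and 10.59 in DN2-3 and 9.37 and 9.41 in DN4 cells and fell by 1.38 ± 0.22 (2.61-fold, adjusted p = 0.00015). The nucleolar genes Ncl and Npm1 fell by 1.00 and 0.98. Mycn and Max, with differences of -0.56 and -0.16, did not pass. Myc lost its call without the male arrays.

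Among metabolic genes, called changes in lipid synthesis were decreases, and those in glycolysis were mixed. In cholesterol and fatty acid synthesis, 13 of 29 genes fell, with a median of -0.35. Idi1, an isomerase of the mevalonate pathway, read 9.86 and 10.21 in DN2-3 and 8.31 and 8.41 in DN4 cells (it fell by 1.67 ± 0.13). Fads2, a fatty acid desaturase, fell by 1.64 ± 0.09, and Sqle, squalene epoxidase, by 0.97. Of 20 glycolysis genes, 6 fell and 4 rose, shares near those over all genes, with a median of -0.09. Pgam1 and Slc16a1, the lactate transporter MCT1, fell by 1.26 ± 0.21 and 1.20 ± 0.12, and Tpi1 and Pgk1 by 1.09 and 1.01. The 4 increases were reduced to 1 without DN2-3 replicate 1 or 2, and to 2 without DN4 replicate 1 or 2, so no direction is given for them. Without the male arrays 2 glycolysis and 8 cholesterol genes were called lower.

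Genes of uncommitted progenitors were mostly lower in DN4 cells, with 12 of 15 called and a median of -0.96. Spi1, which encodes PU.1 and must be silenced for T cell commitment, read 8.03 and 7.45 in DN2-3 cells and was not above background in DN4 cells, at 5.69 and 5.75. It fell by at least 1.76 (adjusted p = 9.2e-07). Cd34 read 7.86 and 7.50 and then also not above background and fell by at least 1.70. Hhex, a homeobox factor of early progenitors, read 7.52 and 7.65 against 6.05 and 6.01 (it fell by 1.56 ± 0.13), and Lyl1 and Bcl11a fell by 1.11 and 1.12. Kit, the stem cell factor receptor, fell less: it read 10.26 and 10.16 in DN2-3 and 9.75 and 9.46 in DN4 cells (it fell by 0.60 ± 0.14, adjusted p = 0.0028), and this call was lost without the male arrays. Summed myeloid and dendritic markers were 3348 and 3166 in DN2-3 and 2238 and 2349 in DN4 cells. Their part in the progenitor result was not tested.

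The largest decreases of single genes included surface and cytoskeletal proteins of early thymocytes. Scin, an actin-severing protein, read 9.16 and 9.54 in DN2-3 and 5.94 and 6.46 in DN4 cells (it fell by 3.15 ± 0.17, 8.87-fold, adjusted p = 2.9e-08). Ifitm2, an interferon-inducible membrane protein, read 11.31 and 11.30 against 8.14 and 8.37 (it fell by 3.05 ± 0.12, 8.26-fold, adjusted p = 3.7e-09). Its other probe sets gave -2.29 and -3.02, and the neighbouring family member Ifitm3 fell by 2.52 ± 0.28. Near-identical copies of the family could share probes. Mpzl2, an adhesion protein of thymic development, read 10.54 and 10.45 in DN2-3 and 7.64 and 7.57 in DN4 cells and fell by 2.90 ± 0.15 (7.44-fold, adjusted p = 1.9e-08). Btk, a kinase of B and myeloid cells, read 7.62 and 7.36 in DN2-3 cells and was not above background in DN4 cells and fell by at least 1.51. The replication-dependent histone gene H2ac4 read 8.56 and 7.51 and then 5.76 and 5.83 and fell by at least 2.05, with DN2-3 replicates about 1 unit apart.

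Genes of the T cell programme rose in return. Of 24 tested T lineage factors, 16 were higher and 1 lower, and the median was 0.69. Foxo1, which controls Klf2, Ccr7 and Il7r in T cells, read 9.16 and 8.93 in DN2-3 and 10.44 and 10.51 in DN4 cells (rise 1.43 ± 0.10, 2.69-fold, adjusted p = 1.5e-07). Tox2 rose by 1.49 ± 0.23, with replicate 1 above replicate 2 at both stages (9.78 and 8.95, then 11.15 and 10.56). Gata3, required throughout T cell development, read 11.62 and 11.48 against 12.41 and 12.30 (rise 0.80 ± 0.12), and Lef1, Satb1, Ets1 and Ikzf3 rose by 0.76, 0.81, 0.93 and 1.37. Bcl11b, the commitment factor, rose by 0.61 ± 0.16 (adjusted p = 0.0065), but without DN4 replicate 1 it changed by 0.54 with an adjusted p of 0.054. The 1 gene lower was Hivep3, at -0.77, which did not pass without DN2-3 replicate 1 or DN4 replicate 2.

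**Figure D3:**
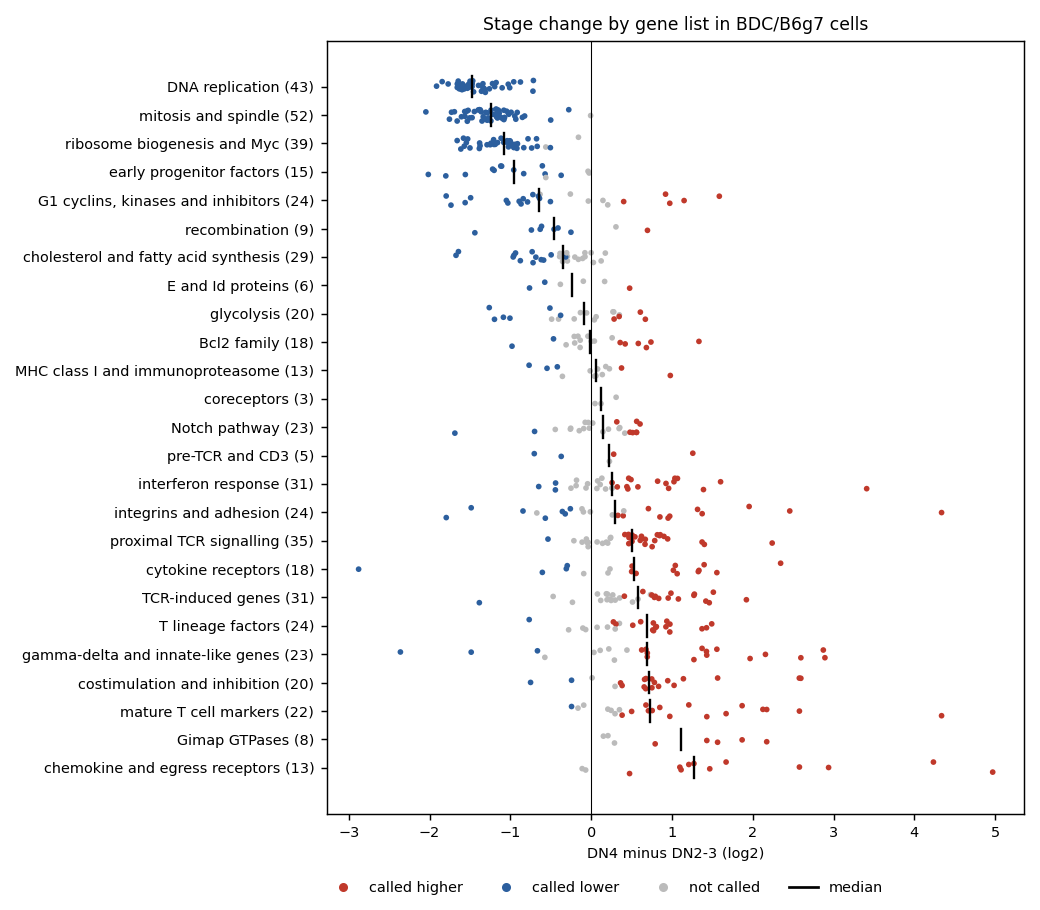
Change from DN2-3 to DN4 in BDC/B6g7 cells (log2, horizontal axis) for the tested genes of 25 lists (vertical axis). Points are genes, coloured where they passed the test, and bars are list medians, which run from -1.47 in DNA replication to 1.27 in chemokine and egress receptors.

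Most recombination genes and the pre-TCR alpha gene fell. Rag1, a subunit of the V(D)J recombinase, read 8.39 and 8.02 in DN2-3 and 7.04 and 6.49 in DN4 cells (it fell by 1.44 ± 0.24, 2.71-fold, adjusted p = 0.00026). Its partner Rag2 was not above background on any of the 4 arrays, and no direction is given. Dntt, which adds bases at the joints, read 10.76 and 10.86 against 10.36 and 10.35 (it fell by 0.46 ± 0.11, adjusted p = 0.0028). Ptcra, the pre-TCR alpha chain, read 7.44 and 7.38 in DN2-3 and 6.80 and 6.62 in DN4 cells and fell by 0.70 ± 0.16 (adjusted p = 0.002). Leaving out Rag2, 6 of 8 recombination genes fell, against 30.4% of all tested genes. Besides Rag1 and Dntt these were Xrcc5, Xrcc6, Prkdc and Nhej1, with changes of -0.74, -0.61, -0.25 and -0.41. Lig4, the ligase of the same pathway, rose by 0.70 ± 0.16, and Xrcc4 was not called. Genes not called without the male arrays included Dntt, Ptcra, Nhej1 and Lig4. Nhej1 was also not called without DN2-3 replicate 2 or DN4 replicate 1.

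The CD3 chains did not move as a unit. Cd247, the zeta chain, read 9.93 and 9.89 in DN2-3 and 11.18 and 11.16 in DN4 cells (rise 1.26 ± 0.12, 2.39-fold, adjusted p = 2.1e-06). Cd3g fell by 0.37 ± 0.09. Cd3e rose by 0.28 ± 0.10 (adjusted p = 0.026), a call lost without any 1 of the 4 arrays (adjusted p between 0.068 and 0.11), and Cd3d differed by 0.23 (adjusted p = 0.083). The TCR delta segment Trdv2-2 read 6.27 and 6.29 against 7.22 and 6.74, a rise of 0.70 (adjusted p = 0.0022). A higher DN4 signal was not particular to BDC/B6g7 cells. Trdv2-2 read 8.84 and 8.80 against 9.59 and 9.52 in polyclonal B6g7 cells, all above the BDC/B6g7 arrays. In BDC/NOD cells it read 6.32 and 5.93 against 6.84 and 6.79.

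Genes that act just below the receptor rose: 22 of 35 proximal TCR signalling genes were higher and 1 lower, with a median of 0.51. Txk, a Tec family kinase, read 9.29 and 9.24 in DN2-3 and 11.57 and 11.45 in DN4 cells (rise 2.24 ± 0.13, 4.72-fold, adjusted p = 5.3e-08). Prkcq, protein kinase C theta, read 10.94 and 10.98 against 12.36 and 12.36 (rise 1.40 ± 0.08), and Blk, a Src family kinase found in gamma-delta T cells, rose by 1.37. Zap70, the kinase that binds the CD3 and zeta chains, read 9.90 and 9.85 in DN2-3 and 10.74 and 10.72 in DN4 cells (rise 0.86 ± 0.09). Syk, its relative in early thymocytes, was the 1 gene lower, by 0.53. Without the male arrays 11 genes were higher.

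Genes known to respond to TCR signals changed less evenly. Of 31 tested, 15 were higher and 1, Myc, was lower, with a median of 0.58. Dusp10, a MAP kinase phosphatase, read 10.77 and 10.52 in DN2-3 and 12.53 and 12.60 in DN4 cells (rise 1.92 ± 0.14). Tnfaip3, the NF-kappa-B inhibitor A20, read 10.71 and 10.49 against 12.19 and 12.04 (rise 1.51 ± 0.12). Cd69, an activation antigen that opposes S1pr1 at the cell surface, read 9.02 and 8.59 against 10.21 and 10.32 (rise 1.46 ± 0.19, 2.75-fold, adjusted p = 2.7e-05). Egr2 and Irf4, factors induced in step with TCR strength, read 7.07 and 6.92 against 8.24 and 8.32, and 7.54 and 7.77 against 8.64 and 9.22. Other immediate-early genes were mixed. Nr4a2, Nr4a3, Fos, Fosb and Junb were called higher, by 1.08, 0.84, 0.79, 0.99 and 0.95. Nr4a1 differed by 0.51 (adjusted p = 0.25) and Egr1 by 0.12 (adjusted p = 0.57), and Egr3, Jun, Jund, Fosl2 and Ier2 did not pass either. Cd5, a gauge of TCR signal strength, differed by 0.25 (adjusted p = 0.059). With only the 8 arrays of BDC mice in the fit, 23 genes of the list were higher.

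Costimulatory and inhibitory receptors were mainly higher, 16 of 20, with a median of 0.71. Icos, a costimulator of the CD28 family, read 7.002 and 6.93 in DN2-3 and 9.44 and 9.69 in DN4 cells (rise 2.60 ± 0.14, 6.04-fold, adjusted p = 3e-08). Cd226, an activating receptor, read 6.58 and 6.40 against 9.10 and 9.04 (rise 2.58 ± 0.11, 5.96-fold). Slamf1 rose by 1.57 ± 0.15, and the inhibitory receptor Pdcd1 by 0.78 ± 0.10, from 11.05 and 11.07 to 11.86 and 11.83. Ctla4, another inhibitory receptor, fell by 0.75, from 9.88 and 9.83 to 8.996 and 9.22. The other gene counted lower, Tnfrsf4, differed by -0.24 and lost its call without any 1 of the 4 arrays.

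Cytokine receptors were 11 higher and 4 lower of 18, the sort gene Il2ra among the lower, with a median of 0.53. The shares over all tested genes were 20.4% higher and 30.4% lower. Il21r, the IL-21 receptor, read 8.18 and 8.23 in DN2-3 and 10.50 and 10.60 in DN4 cells, a rise of 2.34 ± 0.13. Il6st, the shared gp130 chain, Tgfbr2 and Ifngr2 rose by 1.33, 1.33 and 1.40. Il7r, on which survival of DN cells depends, read 10.08 and 10.07 against 10.01 and 9.95 (difference -0.09, adjusted p = 0.51). The lower count fell to 2 without DN2-3 replicate 2 or either DN4 array.

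Genes of the Notch pathway, which directs cells into the T lineage, split. Nrarp, a feedback target of Notch, read 7.90 and 8.20 in DN2-3 and 6.38 and 6.35 in DN4 cells (it fell by 1.69 ± 0.16, adjusted p = 2e-06). Hes1, another target, went up, from 10.64 and 10.67 to 11.24 and 11.19 (rise 0.56 ± 0.08, adjusted p = 7.4e-05). Notch1 read 11.78 and 11.72 against 11.002 and 11.09 (difference -0.70 ± 0.23, adjusted p = 0.02), with adjusted p from 0.06 to 0.095 when any 1 of the 4 arrays was left out. Of 23 genes, 7 were higher and 2 lower, against 20.4% and 30.4% of all tested genes. The higher count was 4 without DN2-3 replicate 2 or DN4 replicate 1, and the lower count was 1 without DN2-3 replicate 1 or 2 or DN4 replicate 1. Of the genes of Id proteins, which inhibit E proteins, Id1 fell by 0.76 ± 0.11 and Id3 by 0.57 ± 0.13, the latter not called without the male arrays. Id2 read 9.14 and 8.92 against 8.82 and 9.05, with overlapping stages (difference -0.10, adjusted p = 0.61). The E protein gene Tcf12 rose by 0.48 ± 0.08, and Tcf3 and Tcf4, with differences of -0.38 and 0.17, did not pass.

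Survival genes showed no common direction, with 6 higher and 2 lower of 18 in the Bcl2 family. Over all tested genes the shares were 20.4% higher and 30.4% lower. Bmf, a pro-apoptotic BH3-only gene, read 7.52 and 7.80 in DN2-3 and 8.88 and 9.11 in DN4 cells (rise 1.33 ± 0.13). Bid, another BH3-only gene, read 8.93 and 8.97 against 8.01 and 7.94 (it fell by 0.98 ± 0.09). Bcl2 itself differed by -0.16 (adjusted p = 0.23). The higher count was 3 without DN2-3 replicate 2 or DN4 replicate 1, and the lower count was 1 without DN2-3 replicate 1 or either DN4 array. The Gimap GTPases, which support survival of T cells, were 5 higher of 8, with a median of 1.11. Gimap3 read 6.06 and 5.77 in DN2-3 and 7.98 and 8.19 in DN4 cells (rise 2.17 ± 0.11), and Gimap4 rose by 1.87 and Gimap8 by 1.56.

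Interferon response genes were 16 higher and 3 lower of 31, with a median of 0.26 and Samhd1 as the largest change. Zbp1, a nucleic acid sensor, read 7.05 and 7.27 in DN2-3 and 8.75 and 8.78 in DN4 cells, a rise of 1.60. Usp18, which limits interferon signalling, rose by 1.39, from 8.47 and 8.40 to 9.81 and 9.83, and Irf7 by 0.96. Eif2ak2, Bst2 and Ifit2 fell by 0.65, 0.44 and 0.44. Without DN4 replicate 2 the higher count was 10, without DN4 replicate 1 the lower count was 1, and without the male arrays the higher count was 8. In MHC class I and the immunoproteasome, 2 of 13 were higher, 1 of them H2-T24 at 0.98 ± 0.12, and 3 lower, 1 of them Psmb9 at -0.77 ± 0.13. Without DN2-3 replicate 1 or DN4 replicate 2, 1 was higher, and without DN4 replicate 1, 1 was lower. With all arrays, both shares of this list were below those over all tested genes (20.4% higher and 30.4% lower).

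The stage step differed from that of polyclonal B6g7 cells in most genes. The stage change of BDC/B6g7 cells minus that of polyclonal cells, tested as an interaction with limma, was called in 5805 of 10689 genes (54.3%), 2917 higher (27.3%) and 2888 lower (27%). In polyclonal cells 1901 genes (17.8%) rose and 2670 (25%) fell. The directions were opposite, with the difference called, in 1055 genes that rose in BDC/B6g7 and fell in polyclonal cells and in 1170 genes that did the reverse. A further 165 rose and 364 fell in both contexts, called in each, whether or not the difference was called. The polyclonal arrays were all from females. Without the male arrays, 3676 genes were called.

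Many cell cycle genes showed this reversal. In polyclonal cells 28 of 43 replication genes rose (median 0.43), and 42 of 52 mitotic genes rose (median 0.76). The difference of stage changes was called lower in BDC/B6g7 cells for 42 of 43 replication and 51 of 52 mitotic genes. Ccne2 read 9.16 and 9.27 in polyclonal DN2-3 and 10.87 and 10.47 in polyclonal DN4 cells, a rise of 1.45 where BDC/B6g7 cells fell by 1.79. The difference was -3.25 ± 0.23 (adjusted p = 1.9e-07). Cdk1 read 10.28 and 10.50 against 11.16 and 11.22 in polyclonal cells, and Rrm2 read 10.75 and 10.76 against 11.16 and 11.61, so that both genes rose in polyclonal cells. Of these 4 groups, BDC/B6g7 DN4 cells had the lowest values of both. In BDC/B6g7 DN2-3 cells both stood above the polyclonal DN2-3 arrays.

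Ribosome and Myc genes had a polyclonal median of 0.17, with 10 higher and 2 lower, and 36 of 39 had a called lower difference. Among chemokine and egress receptors 4 of 13 rose in polyclonal cells. Itgae read 7.97 and 7.72 in polyclonal DN2-3 and 6.76 and 6.35 in polyclonal DN4 cells, a change of -1.29 and a difference of 5.63 ± 0.24 (adjusted p = 8.1e-09). Ccr9 read 10.97 and 10.90 against 10.01 and 10.26 in polyclonal cells (difference 5.04 ± 0.23, adjusted p = 9.7e-09). Ccr8 rose in both, by 1.80 in polyclonal and 4.97 in BDC/B6g7 cells (difference 3.17 ± 0.24, adjusted p = 2.9e-07). Of 13 chemokine and egress receptors, 11 had a called higher difference. The median change of TCR-induced genes was -0.59 in polyclonal cells, where 3 rose and 16 fell, and 22 of 31 had a called higher difference. The median of interferon genes was -0.73, with 1 higher and 22 lower, and 24 of 31 had a called higher difference. Hes1 fell by 1.62 in polyclonal cells and rose in BDC/B6g7 cells (difference 2.18, adjusted p = 2e-08), and Bcl2 fell by 1.75 against -0.16 (difference 1.58).

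The rise of the CD8 genes in polyclonal cells had no called counterpart in BDC/B6g7 cells. Cd8b1 read 6.83 and 7.08 in polyclonal DN2-3 and 11.09 and 11.07 in polyclonal DN4 cells, a change of 4.13 against 0.12 in BDC/B6g7 cells (difference -4.004 ± 0.31, adjusted p = 4e-07). Cd8a differed in the same way (2.99 against 0.05, difference -2.94 ± 0.25, adjusted p = 7.5e-07). Cpa3, a carboxypeptidase gene of mast cells and progenitors, read 11.64 and 11.61 in polyclonal DN2-3 and 7.88 and 7.40 in DN4 cells, but 12.16 and 11.79 and then 12.49 and 12.35 in BDC/B6g7 cells. Its difference was 4.43 ± 0.28 (adjusted p = 8e-08), while its stage change in BDC/B6g7 cells, 0.44 ± 0.20, was not called (adjusted p = 0.083, or 0.016 with the replicate block). Of 12 mast cell markers 6 were not above background on any BDC/B6g7 array. Rag1 fell in both, from 11.55 and 11.28 to 9.91 and 10.49 in polyclonal cells, where the arrays of both stages lay above every BDC/B6g7 value. Progenitor genes had medians of -0.92 in polyclonal and -0.96 in BDC/B6g7 cells, and 5 of 15 had a called difference, 2 higher and 3 lower. Kit changed by -1.94 in polyclonal against -0.60 in BDC/B6g7 cells, and Hhex by -0.66 against -1.56.

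**Figure D4:**
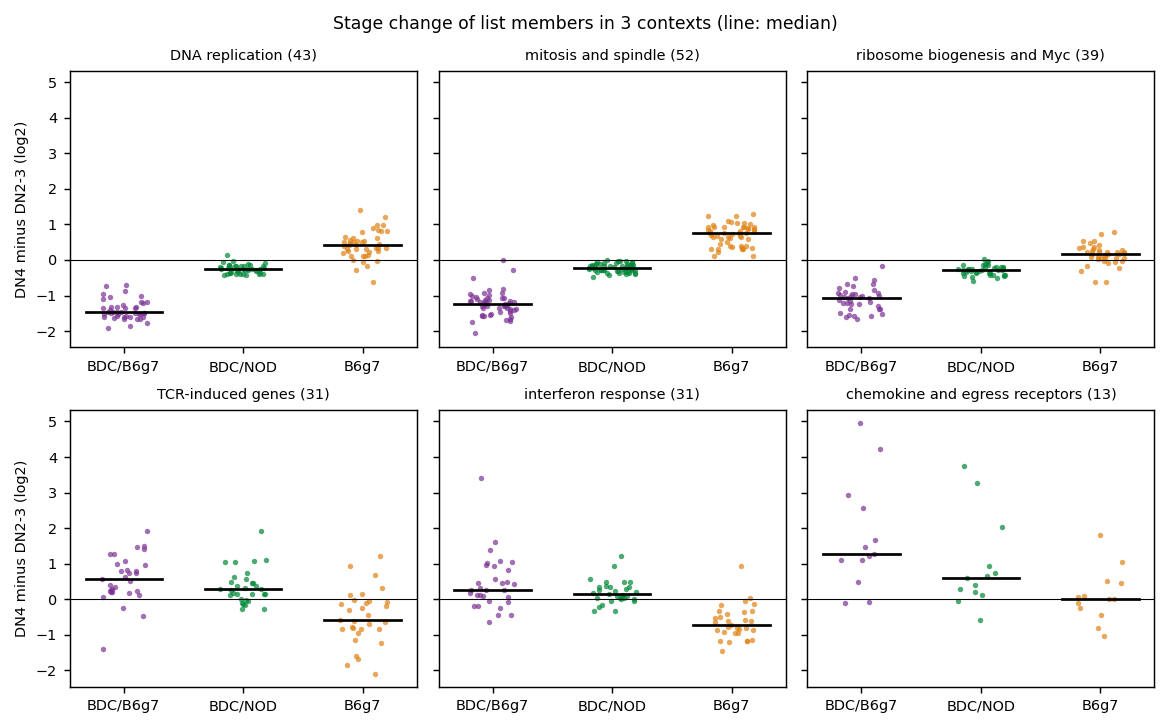
Stage change (DN4 minus DN2-3, log2, vertical axis) of the tested genes of 6 lists in BDC/B6g7, BDC/NOD and polyclonal B6g7 cells. Points are genes and bars medians: replication genes are at -1.47, -0.26 and 0.43, and chemokine and egress receptors at 1.27, 0.59 and 0.02.

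With the same TCR on the NOD background, the stage step mostly had the same direction and a smaller size. In BDC/NOD cells 820 genes (7.67%) rose and 365 (3.41%) fell. Of these 1185 genes, 1081 (91.2%) were called in the same direction in BDC/B6g7 cells, which is 19.9% of the 5426 called there. The difference of stage changes was called in 1684 genes (15.8%), 379 higher (3.55%) and 1305 lower (12.2%) in BDC/B6g7. Quantile normalization applied again moved this split to 735 higher and 1016 lower. Among the genes called the same way in both, 293 had a called difference, and 288 of these changed more in BDC/B6g7 cells. The count of 1684 depends on single arrays. Leaving out replicate 2 of BDC/NOD DN4 gave 901 genes, leaving out the first or the second BDC/NOD DN2-3 array gave 989 or 1052, and leaving out replicate 2 of BDC/B6g7 DN4 gave 1100. Dropping NOD DN2-3 replicate 1 from the shared fit gave 2901. With no male array 12 genes passed.

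The fall of division genes separated the backgrounds. Replication genes had a median of -0.26 in BDC/NOD cells, with 7 of 43 lower, and 41 had a called difference. Mitotic genes had a median of -0.22, with 2 of 52 lower, and 46 had a called difference. Rrm2 read 11.31 and 11.28 in BDC/NOD DN2-3 and 11.19 and 11.33 in BDC/NOD DN4 cells, and the 4 arrays overlapped (difference from BDC/B6g7 -1.81, adjusted p = 0.00082). Cdk1 read 11.09 and 11.11 against 10.72 and 10.80 there. For ribosome and Myc genes the BDC/NOD median was -0.27, with 4 lower, and 30 of 39 had a called difference.

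Among increases, Samhd1 and Icos differed most. Samhd1 read 6.47 and 6.60 in BDC/NOD DN2-3 and 6.78 and 7.05 in BDC/NOD DN4 cells, a change of 0.39 (difference 3.02 ± 0.24, adjusted p = 1.6e-05). Icos read 7.40 and 7.87 against 7.47 and 7.39 in BDC/NOD cells (difference 2.80 ± 0.20, adjusted p = 1.6e-05). Pcsk1 stayed near background in BDC/NOD cells, at 5.61 and 5.78 and then 6.08 and 6.15. Its DN2-3 arrays were not above background in either context, so no size is given for the difference.

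The migration receptors rose in both backgrounds. Itgae read 6.98 and 7.14 in BDC/NOD DN2-3 and 9.90 and 9.98 in BDC/NOD DN4 cells, a change of 2.88 (difference 1.46, adjusted p = 0.0013). Ccr9 changed by 3.28 there (difference 0.96, adjusted p = 0.013), Ccr8 by 3.75 (difference 1.22, adjusted p = 0.0041) and Maf by 2.11 (difference 0.79, adjusted p = 0.016). S1pr1 and Rora changed by 0.75 and 1.12, with differences of 1.82 (adjusted p = 3.9e-05) and 1.75 (adjusted p = 3.2e-05). Cd69 changed by 1.92 in BDC/NOD cells, and the difference of -0.46 did not pass (adjusted p = 0.28). In the chemokine and egress list 7 of 13 rose and 1 fell in BDC/NOD cells, and 9 had a called higher difference.

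Rag1 and the CD8 genes went apart between the transgenic backgrounds. Rag1 read 9.45 and 9.69 in BDC/NOD DN2-3 and 9.97 and 10.08 in BDC/NOD DN4 cells, and the difference was -1.90 ± 0.34 (adjusted p = 0.0025). Cd8b1 read 7.97 and 8.08 against 9.23 and 9.10 in BDC/NOD cells, a change of 1.14 (difference -1.02, adjusted p = 0.043), and Cd8a changed by 1.35 (difference -1.31, adjusted p = 0.0034). Mpzl2 read 11.33 and 11.18 in BDC/NOD DN2-3 and 10.17 and 10.19 in DN4 cells and fell by 1.07 against 2.90 in BDC/B6g7 (difference -1.82, adjusted p = 0.00013). Myc changed by -0.26 in BDC/NOD cells (difference -1.12, adjusted p = 0.025).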

How the data were processed

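RNA of sorted thymocytes was extracted with Trizol, labelled with biotin and hybridized to Affymetrix Mouse Gene 1.0 ST arrays, per the labels. The authors deposited linear intensity values, which came from RMA in Affymetrix Power Tools per the submitters' processing notes and range from 5.82 to 21466. RMA equalises the distribution of probe signals between arrays, so a shift shared by most genes would be reduced. The versions of this software are not given in the sources used here. Detection calls were lacking, and precision is limited by the number of arrays.

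The log2 of each value was taken, with no pseudocount. Of 25108 probe sets, 21157 had 1 gene symbol, 1341 several and 2610 none in the platform table, and 21074 of the symbols matched RefSeq (GRCm38.p6). Each of 19531 genes was represented by its brightest probe set (mean of the 16 arrays). Genes whose highest group mean reached the median of named probe sets (7.05 log2, 132.9 linear) were tested, 10689 in all. The fit was limma 3.58.1 in R 4.3.3, with lmFit on 8 group means of 2 arrays and eBayes (8 residual and 5.06 prior degrees of freedom), two-sided, with Benjamini-Hochberg adjustment over all genes of a comparison at 0.05. The fit was tested on simulated data. Interactions compared the stage change with that of the other contexts. Both differences use the same BDC/B6g7 arrays and are given side by side.

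The lists held 714 genes, of which 652 were matched, 559 were tested and 62 were not analysed here. The comparison, genes and lists were chosen with earlier results of these data known. Genes were named as up to 15 per direction with the largest called change and no overlap of the stages, a list of key genes, up to 8 per list by size, and up to 10 per direction in each interaction. Genes outside this rule were chosen after their values were seen: the members given by value in the text beyond the first 8 of a list and the promoters shown.

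Samples with the same replicate number deviated together from their group means, with r across genes of 0.101 in B6g7, 0.585 in NOD, 0.479 in BDC/B6g7 and 0.462 in BDC/NOD (0.101, 0.585, 0.260 and 0.0863 without X- and Y-linked genes). In BDC mice the number also marks the sex. The numbers were therefore taken as a possible pairing, and a fit with a replicate block was run as an alternative. Standard errors and adjusted p values are from the fit without a block, unless another setting is named. Other alternatives were no filter and a filter at an intensity of 120, quantile normalization again, centring on array medians, a random replicate block, sex as a term, array weights, trended and robust eBayes, fewer arrays, a minimum fold of 2, and omission of each array or of the 4 male arrays.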

Additional observations from a re-analysis of the deposited data

Results flagged for a closer look

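The stage change of BDC/B6g7 cells differed by an interaction test from that of polyclonal B6g7 cells in 5805 genes and from that of BDC/NOD cells in 1684 genes. Differences are on the log2 scale, BDC/B6g7 minus the other context, and were called by limma.

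Against polyclonal B6g7 cells the largest positive differences were those of Itgae (5.63), Ccr9 (5.04), Rgs1 (4.47), Cpa3 (4.43) and Pld4 (4.40). Rgs1, a regulator of chemokine receptor signalling, read 7.64 and 7.38 in DN2-3 and 9.77 and 10.26 in DN4 cells of BDC/B6g7 mice, and changed by -1.97 in polyclonal cells. Pld4, an endolysosomal exonuclease gene, changed by 0.54 in BDC/B6g7 cells, a call lost without DN2-3 replicate 1 or 2 or DN4 replicate 1, and by -3.87 in polyclonal cells. The largest negative differences were those of Cd8b1 (-4.004), Ccne2 (-3.25), the cohesin acetyltransferase gene Esco2 (-3.21), Pbk (-3.08) and the clamp loader subunit Rfc4 (-3.07).

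Against BDC/NOD cells, genes measured above background at each stage of both contexts on at least 1 array included Samhd1 (3.02), Icos (2.80), Gimap3 (2.08) and Hlf (1.97) in the positive direction and Rag1 (-1.90) and Mpzl2 (-1.82) in the negative direction. Hlf, a transcription factor of stem cells, read 6.36 and 6.38 in DN2-3 and 8.53 and 8.15 in DN4 cells of BDC/B6g7 mice, and its change in BDC/NOD cells was -0.01.

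For 4 other genes the fitted difference rests on signals that were not above background, and neither its size nor its rank should be read. Pcsk1 (fitted 2.66) was not above background in DN2-3 cells of either context. H2ac4 (fitted -2.08) was not above background in BDC/B6g7 DN4 cells or on any BDC/NOD array. Rgs6 (fitted -2.02) was not above background in BDC/B6g7 cells, and it read 5.31 and 5.45 in DN2-3 and 7.79 and 7.88 in DN4 cells of BDC/NOD mice. Adgrd1 (fitted -1.82), an adhesion G protein-coupled receptor, read 8.34 and 7.89, then 6.31 and 6.32 in BDC/B6g7 cells and was not above background on any BDC/NOD array.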

How the results depend on the processing

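Of 268 named genes, 225 were called, and 184 of these were called in the same direction in every one of 19 settings. No called gene among them reversed, while uncalled differences could change sign, as those of Cd8a and Cd8b1 did without DN2-3 replicate 2. Leaving out 1 of the 4 arrays ended the call of 26 named genes, and leaving out the 4 male arrays that of 41. The stage count of 5426 was 4292 to 4447 without 1 of the 4 arrays, 2435 without the male arrays and 995 with a 2-fold minimum. It was 6049 with the replicate block, of which 5409 were called without it. The difference from polyclonal cells (5805) was 5038 to 5491 without 1 array, 3676 without the male arrays, 2419 with a 2-fold minimum and 6372 with the replicate block. The difference from BDC/NOD cells (1684) was 901 to 1269 without 1 array and 2272 with the replicate block. It was 12 without the male arrays, 3245 with array weights, 3197 with only the BDC arrays, 2901 without NOD DN2-3 replicate 1, 2608 with a random replicate block and 372 with a 2-fold minimum. The cause of these shifts was not tested. Fits of the differences on the 4 arrays, of the polyclonal difference on BDC arrays and of the BDC/NOD difference on B6g7 arrays could not be made, since they lack the other group.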

Other observations

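Surface antigens of thymocytes outside the gene groups above were 4 higher and 6 lower of 15 tested, against 20.4% and 30.4% of all tested genes. Cd52, a small glycoprotein of lymphocytes, read 8.34 and 7.77 in DN2-3 and 10.32 and 10.50 in DN4 cells of BDC/B6g7 mice (rise 2.36 ± 0.23, adjusted p = 3e-06 with limma). Cd7 read 8.65 and 8.90 against 10.44 and 11.16, a rise of 2.03 ± 0.21, and the peptide transporter gene Slc15a1 rose by 1.55. Bst1 and Ly6d, both antigens of early lymphoid cells, fell by 1.12 and 1.02. Ms4a4b, a membrane protein of mature T cells, read 7.08 and 6.63 in DN2-3 and 8.71 and 9.24 in DN4 cells, a rise of 2.13 ± 0.19.

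The stage change of replicate 1 (male) and that of replicate 2 (female) correlated across 10391 genes with r = 0.945, where genes are not independent replicates, and their median absolute difference was 0.117. In 11 genes they differed by more than 1 log2 unit. Among these, chosen after the values were seen, the long non-coding RNA Malat1 read 10.58 and 10.21 in DN2-3 and 11.46 and 12.11 in DN4 cells, and Akr1c12, an aldo-keto reductase gene, read 7.71 and 6.97 in DN2-3 cells and was not above background in DN4 cells, at 5.19 and 5.80.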
